A study of Bos taurus with 6 samples.

Results

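The ZNF genes described here were the entries of a bovine gene table whose symbol is ZNF followed by a number and whose level was at least 1 in at least 1 of 6 testis libraries. The level is an FPKM value, a number of sequenced fragments scaled to the length of the transcript and to the size of the library. Of 47249 entries in the table, 254 had such a symbol and 250 reached the level. Members were thus chosen by symbol and selected on FPKM, so the fact that these genes were detected is not a result. The libraries were made from testes of Wandong cattle (Bos taurus), 3 untreated immature calves of 3 months and 3 untreated mature bulls of 3 years, 1 animal per library, from total RNA freed of ribosomal RNA. Calves and bulls keep the numbers 1 to 3 of their labels.

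Most ZNF genes code for proteins with runs of C2H2 zinc fingers, small folds that hold a zinc ion and read a short stretch of DNA each. Many carry a KRAB domain, which recruits the corepressor TRIM28 and with it a histone methyltransferase and heterochromatin proteins, and the KRAB proteins as a class are known for silencing transposable elements and holding imprints. Others carry a SCAN domain, which pairs the proteins with each other, or act on RNA, the ribosome or ubiquitin chains. In the testis, several zinc finger proteins are known from the meiotic and later stages of spermatogenesis, stages that a bull has and a calf of this age lacks.

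The label of calf 3 was at odds with its markers. The summed FPKM of 10 neural genes came to 13908 in calf 3, with values of 11.4 to 18.6 elsewhere, and all 10 were highest in calf 3. The summed FPKM of 8 Sertoli cell genes was 867 in calf 3 against 2812 and 2696 in the other calves, with FSHR, WT1 and GATA4 at 0, and CLDN11 was the 1 gene of the list that was highest there. Leydig cell genes summed to 0.502 in calf 3 against 1406 and 1141. The bulls had spermatid markers at summed FPKM of 13573.5 to 15497, against at most 3.38 in the calves. Counts, and the values of most genes named, are therefore given with and without calf 3. In whole tissue, fewer cells of a type and less RNA per cell cannot be told apart.

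Of the 250 ZNF genes, 205 reached the limit of 1 in all 6 libraries, 17 reached it in calves only and 6 in bulls only. The genes of the last 2 kinds entered through the group where they were high and had to differ. The numbers at or above 1 were close to each other, from 224 in bull 1 to 237 in calf 2. The median FPKM of the 250 genes was also alike, at 4.75, 4.99 and 4.56 in calves 1 to 3 and 4.47, 4.93 and 4.52 in bulls 1 to 3. The other genes did not stay level. The median over the 18115 genes tested was 4.40 to 4.6 in the calves and 6.45 to 6.91 in the bulls. Ranked within its own library, the median ZNF gene stood at percentile 53.2, 52.7 and 51 in the calves and at percentile 43.1, 42.6 and 40 in the bulls. All bulls were thus below all calves in this rank, calf 3 included. The rank and the median over all genes depend on the set tested, which a gene could enter through 1 group alone. Of all entries, 14325 to 14992 reached 1 in the calves and 17860 to 18982 in the bulls. Genes that entered through the bulls are low in the calves and raise the rank of the others there.

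**Figure D1:**
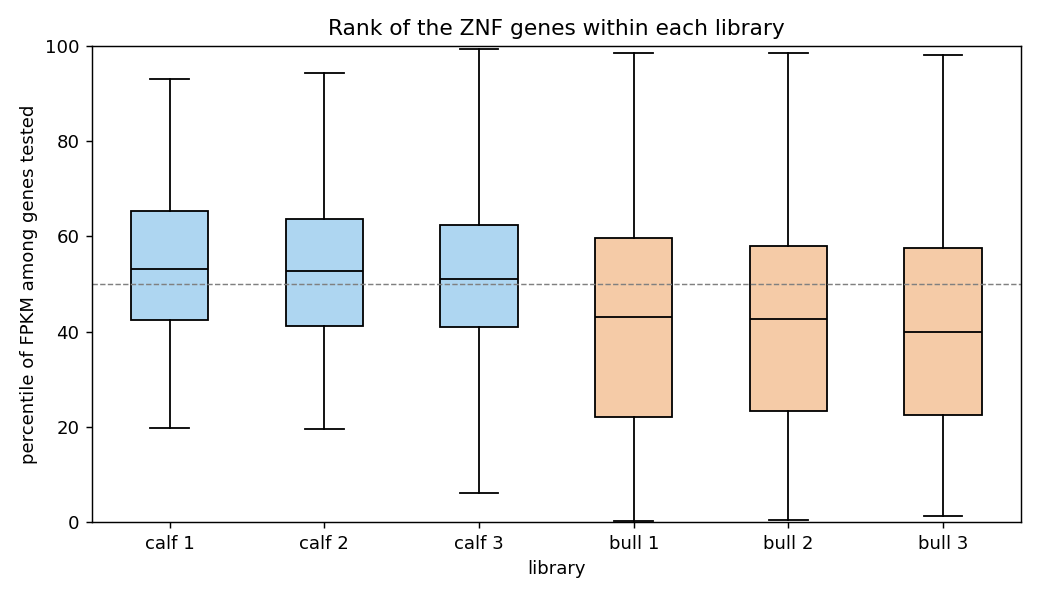
Percentile of each tested ZNF gene among all genes tested, within each library (y axis, 0 to 100). Boxes span the quartiles, the line is the median, whiskers reach the lowest and highest gene, and the dashed line marks percentile 50. The medians were 51 to 53.2 in the calves and 40 to 43.1 in the bulls.

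While the median ZNF level was steady, the upper end was not. The 5 genes with the highest mean over the 6 libraries, ZNF18, ZNF706, ZNF311, ZNF24 and ZNF638, together had an FPKM of 121, 146 and 359 in calves 1 to 3 and of 429, 400 and 386 in the bulls. ZNF genes at an FPKM of 10 or more numbered 33 to 40 in the calves and 53 to 58 in the bulls. The number of all genes at that level is not given here, and the median over all genes tested was also higher in the bulls. The rise at the upper end is thus not shown to be particular to the ZNF genes. At the lower end, the members nearest to the limit of 1 were ZNF296, ZNF514 and ZNF467, with highest values of 1.14, 1.19 and 1.19. The entries nearest below it were ZNF214, ZNF157 and ZNF469, at 0.54, 0.51 and 0.39.

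Levels of bulls and calves were compared on log2(FPKM + 1) with limma for the 241 ZNF genes that reached an FPKM of 1 in 3 or more libraries. A log2 fold change is the bull mean minus the calf mean on this scale, and a gene was called at a Benjamini-Hochberg adjusted p below 0.05, over all genes tested, where the log2 fold change also reached 1 in either direction. Higher in bulls were 40 ZNF genes, 16.6% of those tested, where 35.7% of all genes were called higher. Lower in bulls were 32, or 13.3%, where 9.61% of all genes were called lower. The other 169 were not called, and 53 of these had an adjusted p below 0.05 with a smaller change. Bulls lay above the calves without overlap in 29.5% of the ZNF genes and in 46.1% of all genes, and below them in 37.8% and 21.3%. Without calf 3 they lay above in 78 ZNF genes and below in 107, where 53.5% and 30.9% of all genes did.

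The distribution of the ZNF genes was both lower and narrower than that of all genes. Their median log2 fold change was -0.10 against 0.43 over all genes tested, and 43.6% of them were above 0 against 60.9%. Changes under 1 in size made up 68.9% of the ZNF genes and 48.1% of all genes. The SD of the log2 fold changes was 1.10 and 1.75, and only 2 ZNF genes (0.83%), ZNF18 and ZNF646, had a change of 3 or more in size, where 9.7% of all genes had one. Sizes on log2(FPKM + 1) understate the change of low genes. The spread of all genes also depends on the set tested, which a gene could enter through 1 group alone.

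Scaling moved the split between both directions. Quantile normalization shifted the median of all genes by -0.69 and gave 27 ZNF genes higher and 91 lower, where 21.1% and 25.1% of all genes were called. Scaling by median of ratios shifted it by -0.23 and gave 34 and 46, against 32% and 13.6%. The distance between the median ZNF gene and the median of all genes moved little, at -0.53 as deposited, -0.52 after quantile normalization and -0.52 after median-of-ratios scaling. Both scalings move all genes of a library together, so they could hardly change this distance, and its steadiness is not a further result. Without calf 3, 37 ZNF genes were called higher and 33 lower, against 37.9% and 13.6% of all genes, and the distance was -0.54. With both scalings and no calf 3, quantile normalization gave 25 higher and 88 lower, against 22.4% and 29.1%, and median of ratios 30 and 54, against 33.2% and 19.6%. As deposited, 37 genes were called higher and 28 lower in both the fit with and the fit without calf 3. Without bull 1, 39 were called higher and 21 lower, where 33.7% and 6.72% of all genes were.

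**Figure D2:**
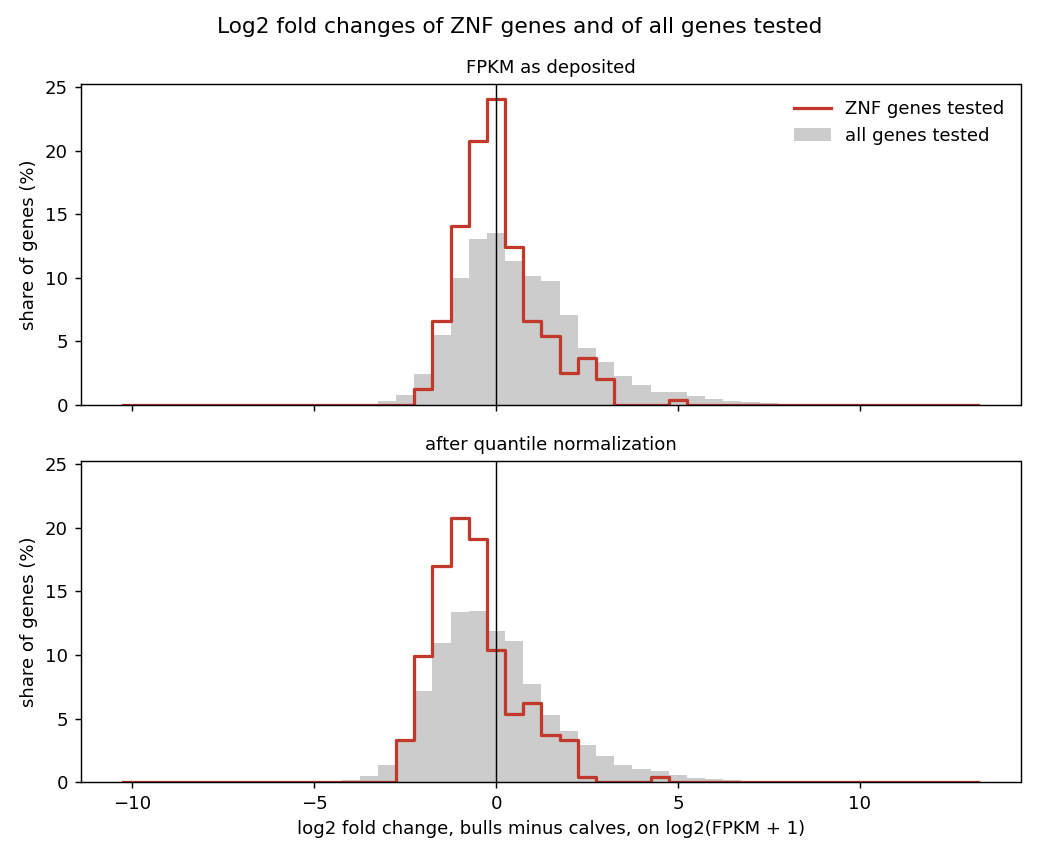
Log2 fold changes (x axis, bulls minus calves on log2(FPKM + 1)) of the 241 ZNF genes (line) and of the 18115 genes tested (grey bars), as the share of each set in percent (y axis). As deposited (top) the medians were -0.10 and 0.43, and after quantile normalization (bottom) -0.78 and -0.26.

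The genes called higher were moderately expressed in calves and well expressed in bulls. Their median FPKM was 4.48 in calves and 19.4 in bulls, with log2 fold changes from 1.05 to 4.91. The genes called lower went the other way to low levels. Their median FPKM was 6.34 in calves and 1.74 in bulls, with log2 fold changes from -2.12 to -1.0, and none had a bull mean above 4.36. In all 72 called genes the groups did not overlap. Calf 3 was the lowest calf in 28 of the 40 genes called higher and the highest in 15 of the 32 called lower. Its part in these results was tested only by leaving it out.

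ZNF18, a protein with a SCAN and a KRAB domain (ENSBTAG00000004675, chromosome 19, 30616167 to 30640005 on the ARS-UCD assembly), was the outstanding member. It had an FPKM of 4.68, 5.65 and 7.56 in calves 1 to 3 and of 228, 213 and 178 in bulls 1 to 3. The bulls were thus far above every calf, and the bull mean was 39.9 times the mean of calf 1 and calf 2. Its log2 fold change was 4.91 ± 0.21 (SE), with a limma adjusted p of 1.42e-05, and 5.07 without calf 3. The table lists a single tested transcript for it, ZNF18-201, with the same values.

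ZNF646, with many zinc fingers and little known function (chromosome 25, 27184092 to 27193576), stood at 5.04, 4.67 and 3.65 in the calves and at 46.0, 44.3 and 47.1 in the bulls, where values were close together. Its log2 fold change was 3.11 ± 0.16 (limma adjusted p = 2.73e-05). Another tested entry overlaps its locus. ZNF432, a KRAB protein (chromosome 18, 57825465 to 57831752), had 6.04, 6.27 and 9.36 in the calves and 53.1, 62.7 and 56.2 in the bulls, a log2 fold change of 2.85 ± 0.20 (limma adjusted p = 8.77e-05). ZNF789, also a KRAB protein (chromosome 25, 36872481 to 36883577), had 2.71, 2.87 and 2.18 in the calves and 22.5, 28.2 and 23.4 in the bulls. Its log2 fold change was 2.84 ± 0.17 (limma adjusted p = 5.25e-05). In these genes the lowest bull was several times the highest calf, and without calf 3 the log2 fold changes were 3.0, 3.02 and 2.75.

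Further genes with large rises were ZNF438, ZNF628, ZNF574 and ZNF541. ZNF438 (chromosome 13, 34231654 to 34439280) stood at 2.12, 2.98 and 1.22 in the calves and at 25.0, 20.6 and 19.5 in the bulls, with a log2 fold change of 2.90 ± 0.26. When only its transcripts of the Ensembl annotation were summed, the change was 1.59 and still called. ZNF628, whose mouse counterpart acts in the later steps of sperm formation (chromosome 18, 62025056 to 62031537), had 2.46, 2.85 and 1.15 in the calves and 25.0, 17.1 and 20.0 in the bulls (log2 fold change 2.81 ± 0.28). ZNF574 (chromosome 18, 51171136 to 51178420) had 7.22, 6.93 and 4.46 in the calves and 46.8, 42.3 and 49.2 in the bulls (2.73 ± 0.21). In these genes calf 3 was the lowest of the calves, and their log2 fold changes without it were 2.68, 2.55 and 2.54. Across all 4 genes, ZNF541 included, the limma adjusted p was at most 0.0013. By adjusted p, ZNF821 (chromosome 18, 39215632 to 39232695) ranked with ZNF18, ZNF646 and ZNF789 as the 4 smallest, at 6.36e-05. It had 4.65, 5.52 and 4.22 in the calves and 28.8, 31.2 and 28.4 in the bulls, with a log2 fold change of 2.40 and of 2.33 without calf 3.

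At the other end stood ZNF704 and ZNF84. ZNF704 (chromosome 14, 43837811 to 44086389) stood at 3.57, 4.59 and 13.1 in calves 1 to 3 and at 0.63, 0.74 and 0.55 in bulls 1 to 3. Its log2 fold change was -2.12 ± 0.43 (limma adjusted p = 0.00714), and -1.62 without calf 3, which was its highest library. ZNF84, a KRAB protein (chromosome 17, 44044076 to 44072816), had 5.59, 4.93 and 5.79 in the calves and 0.63, 0.49 and 0.39 in the bulls. There the calves were alike, and the log2 fold change was -2.10 ± 0.15 (limma adjusted p = 9.3e-05) with calf 3 and -2.06 without.

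The other 6 of the lowest genes differed in where calf 3 lay. In ZNF365, known for a role at the centrosome and in neurons (chromosome 28, 18471094 to 18495472), calf 3 had 16.2 against 3.86 and 3.74 in the other calves and 1.08, 1.26 and 0.76 in the bulls. The log2 fold change was -1.86 ± 0.53, and -1.25 without calf 3. In ZNF182, a KRAB protein of the X chromosome (86423078 to 86446108), calf 3 had 12.2 against 4.02 and 3.28, and the bulls had 1.11, 1.26 and 0.99. For ZNF182 the log2 fold change was -1.63, and -1.13 without calf 3. Both genes were called in either fit. In ZNF25, a KRAB protein (chromosome 28, 13021983 to 13052636), calf 3 lay among its group, with 12.2, 9.39 and 10.1 in the calves and 2.10, 2.87 and 2.71 in the bulls (-1.70 ± 0.19, limma adjusted p = 0.000534). Nearly all of this came from assembled transcripts, as the Ensembl transcripts of ZNF25 summed to 0.68, 0.10 and 0.45 in the calves and at most 0.15 in the bulls. ZNF268, another KRAB gene, has 2 entries in the table. The shorter entry (ENSBTAG00000039316, chromosome 17, 44224575 to 44226983) had 6.89, 6.61 and 7.60 in the calves and 1.25, 2.30 and 1.62 in the bulls (-1.58 ± 0.20). The longer entry (44195034 to 44252033) spans it and went the other way without a call, at 0.49. Its mean was 5.02 in calves 1 and 2 and 7.92 in the bulls, with 5.21 in calf 3. The fall is thus that of the shorter entry only. Without calf 3 the values of ZNF25 and the shorter ZNF268 entry were -1.72 and -1.53. ZNF770 (chromosome 10, 30446100 to 30513369) and ZNF358 (chromosome 7, 16383613 to 16388881) had log2 fold changes of -1.65 ± 0.30 and -1.52 ± 0.18, and of -1.45 and -1.41 without calf 3. Entries overlap the loci of ZNF25, ZNF365, ZNF268 and ZNF770.

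**Figure D3:**
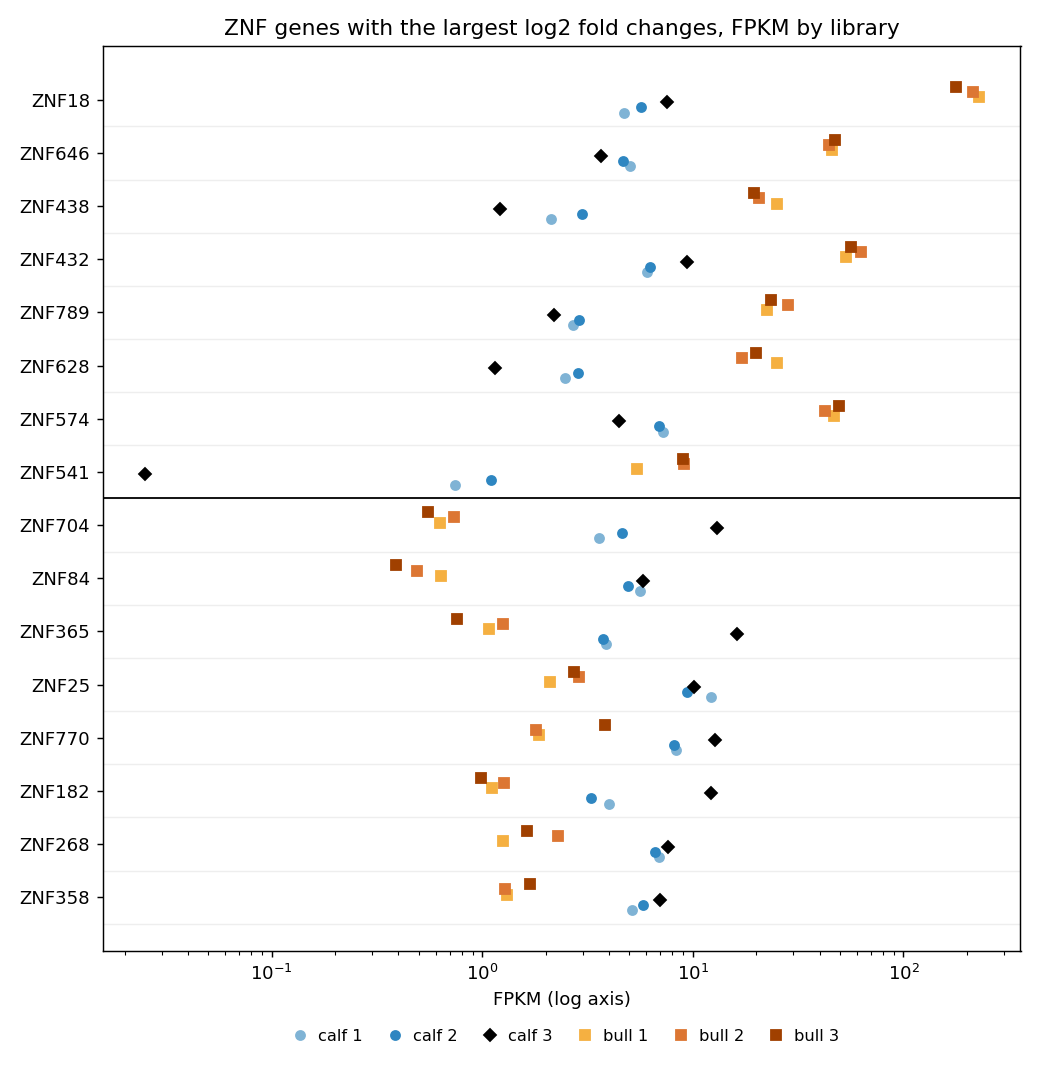
FPKM (x axis, log scale) in each library of the 8 ZNF genes with the largest positive and the 8 with the largest negative log2 fold change among those called with and without calf 3. Circles are calves 1 and 2, diamonds calf 3 and squares bulls. ZNF18 reached 178 to 228 in the bulls and 4.68 to 7.56 in the calves, and ZNF84 had 0.39 to 0.63 in the bulls and 4.93 to 5.79 in the calves.

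Of the other genes with a high mean, ZNF706, a small protein with a single zinc finger, had an FPKM of 28.0, 33.0 and 14.8 in the calves and of 125, 109 and 129 in the bulls. Its log2 fold change was 2.28 ± 0.31 (limma adjusted p = 0.00125), and 1.95 without calf 3, but 0.50 over its Ensembl transcripts alone, which was not called. ZNF24, a SCAN protein, had 34.7, 40.4 and 52.5 in the calves and 24.7, 27.4 and 31.0 in the bulls, and ZNF638, which binds RNA and works with the HUSH silencing complex, had 32.1, 32.4 and 50.4 and then 24.1, 30.4 and 27.8. In both genes all bulls were below all calves and the change was under the limit, at -0.59 ± 0.20 and -0.44 ± 0.23, though after quantile normalization both were called lower. ZNF311 was an exception with 234 in calf 3 against 21.7 and 34.5 in the other calves and 27.5, 19.3 and 21.1 in the bulls. Its groups overlapped (-1.29 ± 0.86, limma adjusted p = 0.247). One assembled transcript held 229 of the 234 in calf 3, and the Ensembl transcript ZNF311-201 had only 4.82 there.

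Calf 3 was within 2-fold of the mean of calf 1 and calf 2 for most ZNF genes. It was at least 2-fold above that mean in 19 and at least 2-fold below it in 12 on the log2(FPKM + 1) scale, and at least 4-fold away in 3. Of all 18115 genes tested, 2496 were above and 2792 below by that measure. Between calf 1 and calf 2 a single ZNF gene differed as much, and 384 of all genes. By the excess of calf 3 over the highest of the other 5 libraries on this scale, the first 5 ZNF genes were ZNF311, ZNF536, ZNF365, ZNF185 and ZNF182, at 2.72, 2.11, 1.82, 1.53 and 1.39. ZNF536, a repressor of neuronal differentiation, had an FPKM of 21.4 in calf 3, 0.83 and 1.31 in the other calves and 4.19, 2.79 and 2.5 in the bulls. Its log2 fold change was -0.15 ± 0.97 with calf 3 and 1.0 without it, the largest move of any ZNF gene. ZNF185, which holds a LIM domain, had 4.86 in calf 3, 1.02 and 0.95 in the others and 0.48 to 0.55 in the bulls, too low to be tested. ZNF483 moved from 0.11 to 0.79 and ZNF771 from -0.36 to -0.95, and neither was called in either fit.

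Among genes with a known role in the testis, both ZNF541 and ZNF318 rose. ZNF541, a chromatin regulator of meiotic cells (chromosome 18, 54494035 to 54508720), stood at FPKM values of 0.74, 1.10 and 0.02 in calves 1 to 3 and at 5.44, 9.06 and 8.94 in bulls 1 to 3. The log2 fold change was 2.47 ± 0.34, and 2.17 without calf 3. ZNF318, a testis zinc finger protein that binds the androgen receptor (chromosome 23, 16929147 to 16955976), had 4.13, 4.86 and 5.74 in the calves and 20.4, 21.2 and 23.4 in the bulls (1.94 ± 0.17, limma adjusted p = 0.000197), and 2.04 without calf 3. ZNF165, a cancer-testis gene, had 2.12, 2.48 and 0.65 in the calves and 2.74, 3.99 and 4.55 in the bulls, at 0.84 ± 0.34 (limma adjusted p = 0.0777). The list held 6 symbols, of which these 3 were members, and its 2 calls stood under both scalings and without calf 3. Of all genes, 35.7% were called higher as deposited, 21.1% after quantile normalization, 32% after median-of-ratios scaling and 37.9% without calf 3. Markers of spermatocytes summed to an FPKM of 10.1 to 26.6 in the calves and 207 to 258 in the bulls beside these values.

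A list of 14 symbols of SCAN domain genes, which does not hold ZNF18, had 12 among the members, in 13 entries. Of these, 4 were called higher and 1 lower, against 35.7% and 9.61% of all genes. After quantile normalization these were 2 and 4, against 21.1% and 25.1%, so that the balance turned, and with no calf 3 as well 1 and 4, against 22.4% and 29.1%. As deposited without calf 3 they were 3 and 1, against 37.9% and 13.6%. ZNF215 had an FPKM of 2.14, 1.19 and 0.39 in the calves and of 7.30, 6.87 and 6.80 in the bulls (1.91 ± 0.32, limma adjusted p = 0.00286). ZNF446 had 1.05 to 1.15 in the calves and 3.25 to 4.20 in the bulls (1.17 ± 0.15), and was not called after quantile normalization (0.45) or median-of-ratios scaling (0.98). ZNF174, a SCAN repressor, fell from 5.50, 5.64 and 2.92 to 1.16, 1.70 and 1.25 (-1.23 ± 0.26, limma adjusted p = 0.00821). ZNF202 and 1 entry of ZNF449 were the other calls, and both are taken up with the transcripts below. By name, the 15 genes called ZSCAN or ZKSCAN had 4 calls higher and 1 lower, and 3 of each without calf 3.

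Chromatin and promoter regulators were mostly steady, with 1 of 15 tested called higher and 1 lower, with and without calf 3, and 1 and 3 after quantile normalization. The shares of all genes were 35.7% and 9.61%, and 21.1% and 25.1% after quantile normalization. ZNF76, a paralog of the promoter factor ZNF143, had an FPKM of 4.05, 4.03 and 3.1 in the calves and of 14.1, 12.7 and 13.9 in the bulls (1.63 ± 0.17, limma adjusted p = 0.000388). ZNF143 itself had 6.31 to 8.03 in the calves and 7.67 to 8.08 in the bulls, with a log2 fold change of 0.08 ± 0.16. The pair therefore differed in its pattern, though the difference between the 2 genes was not tested. ZNF711, which binds CpG island promoters with the demethylase PHF8, fell from 10.2, 9.0 and 12.3 to 2.56, 3.83 and 3.03 (-1.47 ± 0.20, limma adjusted p = 0.00137). ZNF148, a GC box binding protein, had -0.76 ± 0.19 and ZNF217, a partner of the CoREST complex, 0.79 ± 0.49, neither called. ZNF148 was called lower after quantile normalization (-1.40) and after median-of-ratios scaling (-1.03), in each case also without calf 3. For ZNF217 the value rested on calf 3, with 2.04 there and 8.55 and 9.25 in the other calves, and it was 0.22 without it.

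Genes that act on RNA, the ribosome or ubiquitin and SUMO had 4 of 10 called higher and none lower, where 35.7% of all genes were called higher. After quantile normalization 3 were higher and 4 lower, where 21.1% and 25.1% of all genes were. With no calf 3 as well these were 1 and 3, against 22.4% and 29.1%. As deposited without calf 3 they were 4 and 1, against 37.9% and 13.6%. The gene called lower there was ZNF593, a factor of the large ribosomal subunit, just at the limit with -1.0. ZNF346, which binds double-stranded RNA, had an FPKM of 2.33, 3.91 and 1.90 in the calves and of 20.8, 17.8 and 18.6 in the bulls (2.47 ± 0.24, limma adjusted p = 0.000307). ZNF598, the ubiquitin ligase that senses collided ribosomes, had 7.46, 8.81 and 5.52 and then 28.3, 25.9 and 21.9 (1.69 ± 0.21, limma adjusted p = 0.000858). Without calf 3 the values of ZNF346 and ZNF598 were 2.31 and 1.53. The SUMO ligase ZNF451 had 9.43, 8.56 and 4.78 and then 24.7, 23.4 and 27.2 (1.65 ± 0.26), but its Ensembl transcripts alone gave 0.57, which was not called. ZNF473, of histone messenger RNA processing, was the 4th, at 1.06 ± 0.23. ZNF622, another ribosome factor, had 1.09 ± 0.43 (limma adjusted p = 0.0734).

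Of the 3 imprinting genes, ZNF445, a KRAB protein that keeps imprints, fell from 11.6, 9.43 and 9.22 to 3.59, 4.17 and 4.15 (-1.15 ± 0.17, limma adjusted p = 0.00183). ZNF597 and ZNF331, which are imprinted genes themselves, had log2 fold changes of 0.62 ± 0.12 and -0.30 ± 0.21 and were not called. After quantile normalization the value of ZNF597 was -0.48, so its direction depended on the scaling. None of these calls changed without calf 3. Of all genes, 9.61% were called lower with calf 3 and 13.6% without it.

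Of the neural genes, 7 of 8 symbols were members. None was called higher and 3 were called lower, with and without calf 3, and 6 after quantile normalization, where 9.61%, 13.6% and 25.1% of all genes were called lower. Apart from ZNF365, these were ZNF423, with 4.72, 4.69 and 4.18 in the calves and 1.41, 1.23 and 1.47 in the bulls (-1.22 ± 0.15, limma adjusted p = 0.000819), and ZNF503, with 3.72, 3.15 and 1.64 and then 0.97, 0.66 and 0.85 (-1.03 ± 0.25). In both, calf 3 was the lowest calf. In 5 of the 7, calf 3 was the highest library, as were all 10 neural markers. ZNF462 was one of them, with 11 in calf 3 and 3.85 and 4.07 in the other calves, and was not called (-1.13 ± 0.41, limma adjusted p = 0.0564).

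The cofactors of KRAB proteins are no ZNF genes, and were examined since KRAB proteins act through them. ZFP57, itself a KRAB protein, was counted in this list. Of 12 tested, 4 were called higher and 1, ZFP57, lower, with and without calf 3. After quantile normalization these were 1 and 4, so that the balance turned. These shares, 33.3% and 8.33% as deposited, were near those of all genes, 35.7% and 9.61%, which were 21.1% and 25.1% after quantile normalization. TRIM28, the corepressor that KRAB domains bind, had an FPKM of 63.0, 56.9 and 25.5 in the calves and of 217, 216 and 217 in the bulls (2.24 ± 0.36, limma adjusted p = 0.00257), and was called higher under both scalings. SETDB1, the histone methyltransferase that it recruits, had 14.2, 18.4 and 9.56 and then 39.7, 34.4 and 36.9 (1.38 ± 0.25, limma adjusted p = 0.00419). MORC2 and MPHOSPH8, of the HUSH silencing pathway, had 1.23 ± 0.19 and 1.11 ± 0.15. SETDB1, MORC2 and MPHOSPH8 were not called after quantile normalization, at 0.69, 0.57 and 0.41. ZFP57, a KRAB protein that keeps imprints, fell from 7.53, 5.52 and 3.57 to 0.57, 1.12 and 1.05 (-1.74 ± 0.28, limma adjusted p = 0.00251). Over Ensembl transcripts alone ZFP57 was too low to be tested, so its fall rests on assembled transcripts. The heterochromatin proteins CBX1, CBX3 and CBX5 had log2 fold changes between -0.48 and -0.05 and were not called.

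**Figure D4:**
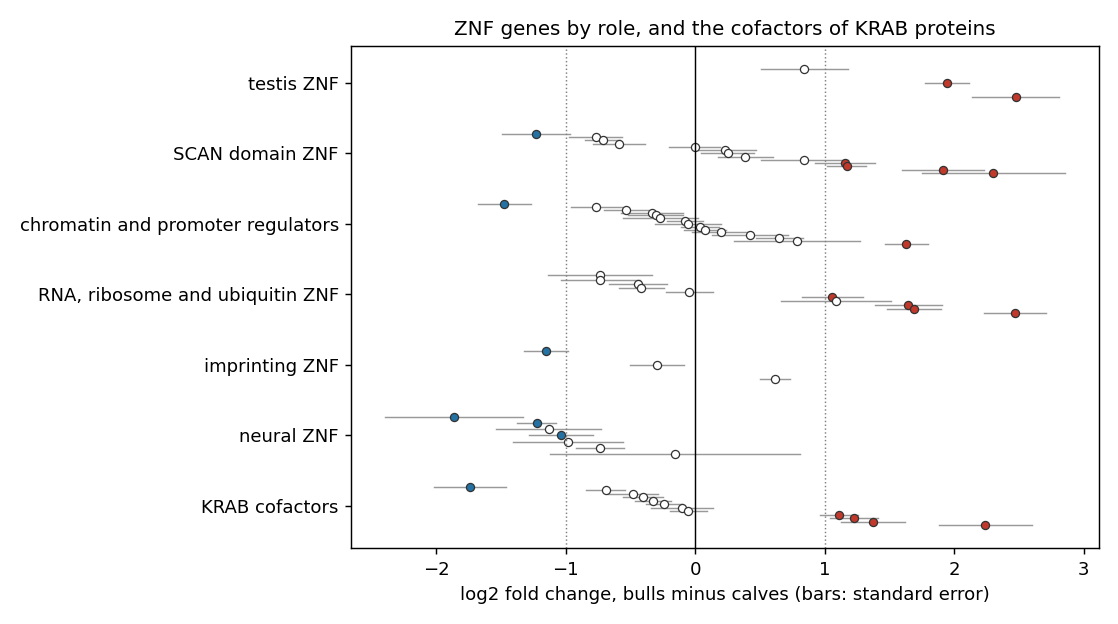
Log2 fold changes (x axis, bulls minus calves on log2(FPKM + 1)) of tested ZNF genes by role and of the cofactors of KRAB proteins. Each point is a gene and each bar its standard error, red called higher, blue called lower and white not called, and dotted lines mark a change of 1 in size. TRIM28 had 2.24 and ZFP57, a KRAB protein counted in the list of cofactors, -1.74. Of the 12 genes of that list, 4 were called higher as deposited and 1 after quantile normalization.

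By chromosome, 77 of the 250 ZNF genes lie on chromosome 18, 23 on chromosome 25 and 17 on chromosome 7. On chromosome 18, 12 of 75 tested were called higher and 7 lower, with a median log2 fold change of -0.02, where the other genes of the chromosome had 0.44 and were called higher in 35.7% and lower in 6.37%. ZNF genes with gaps of at most 500 kb formed 11 clusters of at least 5 members, with 90 members in all. In the clusters 12.6% of the tested genes were called higher and 11.5% lower, and outside them 18.8% and 14.3%. Of all genes, 35.7% were called higher and 9.61% lower. The median log2 fold changes in and outside clusters were -0.14 and -0.10. Without calf 3, 11 and 10 genes in the clusters and 26 and 23 outside them were called higher and lower, against 37.9% and 13.6% of all genes. Neighbours may share regulation and reads, so the members of a cluster are not independent.

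Chromosome 28 and the X chromosome had most of their ZNF genes called lower and none called higher. On chromosome 28, these were ZNF25, ZNF365, ZNF503, ZNF22 and ZNF32, 5 of 7, with a median of -1.03, and -1.25 without calf 3, where the other genes of this chromosome had 0.35 and were called higher in 35.3% and lower in 12.9%. Over Ensembl transcripts alone, ZNF25 was too low to be tested and ZNF22 and ZNF32, at -1.17 and -0.96, were not called. On the X chromosome 5 of 6 tested were called lower, ZNF182, ZNF711, ZNF41, ZNF81 and ZNF674, with a median of -1.35. The other 658 X genes had a median of -0.35 and were called higher in 22.9% and lower in 29.8%. ZNF41 had an FPKM of 2.25, 2.03 and 5.61 in the calves and of 0.54, 0.73 and 0.46 in the bulls, and ZNF674 had 2.47, 2.63 and 6.97 and then 0.68, 0.83 and 0.99. Calf 3 was the highest library for all 5 of these X genes. Without it the median was -0.98, and that of the other X genes -0.46. ZNF41, ZNF81 and ZNF674, at -1.0, -0.85 and -0.96, were then no longer called, while ZNF182 and ZNF711 were. Over Ensembl transcripts alone ZNF41 and ZNF674 were too low to be tested and ZNF81 was not called.

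A gene value in the table may hold more than the protein-coding RNA. The table of transcripts assigns 897 transcripts to the 250 genes, and 481 of them carry the identifier of a transcript assembled by the authors in place of an Ensembl one. Names in the form of ZNF202-AS1 or ZNF449-OT1, of which the first is the usual form for an antisense transcript, were given to 121 transcripts of 65 genes. Of 332 tested transcripts, 73 (22%) were called higher and 35 (10.5%) lower, where 34.8% and 9.37% of all transcripts were. Without calf 3 these were 67 and 34, against 36.1% and 13.1%. Assembled transcripts were called higher in 37 of 88 and lower in 7, and Ensembl transcripts in 36 and 28 of 244. Shares over all assembled and all Ensembl transcripts are not given here, so this contrast cannot be read as a trait of the ZNF genes. A transcript could also pass the filter through 1 group alone. Of 14 tested transcripts with a name of this form, 13 were called higher, and 12 without calf 3. All 13 were below an FPKM of 1 in every calf, so that they passed the filter through the bulls and had to be higher. Of all 924 tested transcripts with such a name in the table, 71.6% were called higher.

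ZNF202, a SCAN protein that represses genes of lipid metabolism, shows this best. As a gene it had an FPKM of 2.90, 2.37 and 1.32 in the calves and of 24.8, 20.2 and 5.66 in the bulls, a log2 fold change of 2.30 ± 0.55 (limma adjusted p = 0.0135). Its Ensembl transcript ZNF202-201 had 1.46, 0.80 and 0.56 in the calves and 1.37, 1.15 and 0.85 in the bulls (0.15 ± 0.21, limma adjusted p = 0.578). The transcript ZNF202-AS1 had 0, 0.05 and 0.04 in the calves and 22.6, 18.1 and 4.08 in the bulls (3.68 ± 0.59, limma adjusted p = 0.0028). The bull values of the gene thus followed the AS transcript, and the Ensembl transcript overlapped between groups.

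Several other calls had the same form. In ZNF706, the Ensembl transcript ZNF706-202 had 16.4, 18.9 and 8.70 in the calves and 18.8, 23.9 and 17.1 in the bulls (0.47 ± 0.32), and 1 assembled transcript rose from at most 0.94 to 63.9, 55.2 and 73.1 (5.69 ± 0.31, limma adjusted p = 4.43e-05). In ZNF655, an assembled transcript had 2.24, 1.59 and 2.04 and then 26.4, 24.9 and 28.2, and the Ensembl transcript had 0.42 ± 0.24. In ZNF629, the Ensembl transcript had -0.25 ± 0.23, and an assembled transcript had 3.09 ± 0.20. In the entry of ZNF449 on an unplaced scaffold, ZNF449-OT1 was at 0 in all calves and at 3.06, 5.01 and 4.55 in the bulls, while its main Ensembl transcript had -0.76 ± 0.13. These genes rose in the table without a called rise of their tested Ensembl transcripts, and ZNF449 was not called without calf 3 (0.99).

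Summing only Ensembl transcripts, 30 of the 40 genes called higher were called again, 8 were not and 2, ZNF26 and ZNF584, were too low to be tested. The 8 were ZNF184, ZNF202, ZNF449, ZNF451, ZNF513, ZNF629, ZNF655 and ZNF706. Of the 32 called lower, 24 were called again, 3 were not and 5 were too low, and ZNF462, ZNF521, ZNF532 and ZNF710 were added. Over the 217 genes tested in this way, 30 were higher and 28 lower, where 35.1% and 10.4% of all genes were. Without calf 3 these were 27 and 29, against 36.9% and 14.7%.

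ZNF3 had 2 Ensembl transcripts that went in opposite directions. ZNF3-201 had an FPKM of 2.33, 2.92 and 1.92 in the calves and of 5.87, 7.46 and 5.80 in the bulls (1.12 ± 0.21, limma adjusted p = 0.00517). ZNF3-202 had 2.46, 1.81 and 3.09 in the calves and 0.01, 0.02 and 0.07 in the bulls (-1.73 ± 0.16, limma adjusted p = 0.000304). Neither transcript overlapped between groups, and both calls stood without calf 3. The gene as a whole had 5.0 to 5.43 in the calves and 6.01 to 7.62 in the bulls and was not called (0.29 ± 0.17). In all, 15 ZNF genes that were not called had a transcript that was.

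**Figure D5:**
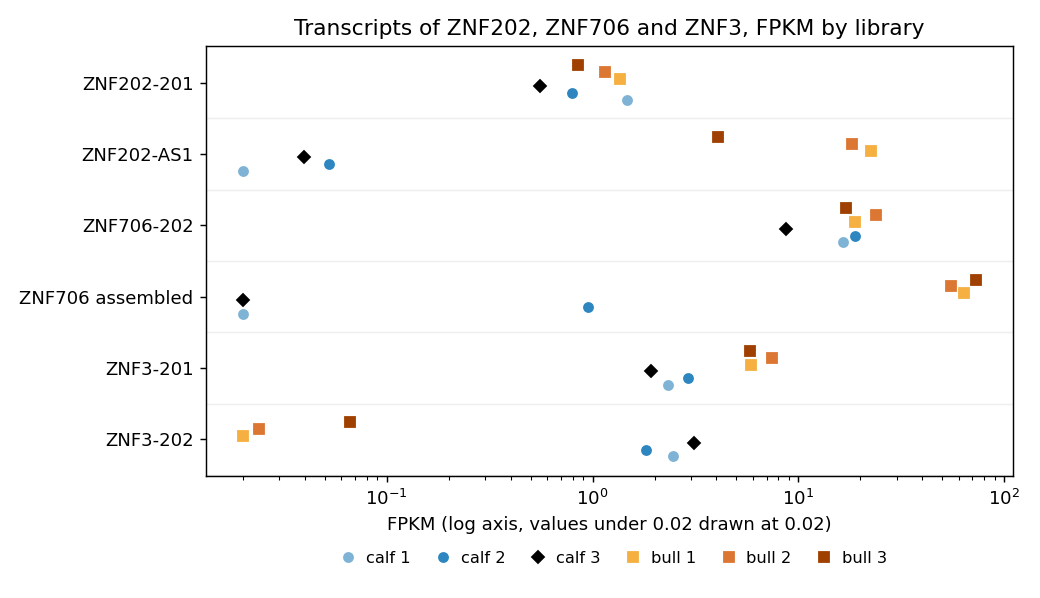
FPKM (x axis, log scale, values under 0.02 drawn at 0.02) of 6 transcripts in each library. Circles are calves 1 and 2, diamonds calf 3 and squares bulls. ZNF202-AS1 was at 4.08 to 22.6 in the bulls and at most 0.05 in the calves while ZNF202-201 overlapped, and ZNF3-201 and ZNF3-202 went in opposite directions.

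Of the other zinc finger genes by name, the 39 tested ZBTB genes had 8 called higher and 6 lower with a median log2 fold change of -0.12, and the 14 tested ZFP genes had 2 and 3 with -0.60. All genes were called higher in 35.7% and lower in 9.61%. Without calf 3 the ZBTB genes had 7 of each and the ZFP genes 2 and 3. After quantile normalization these were 5 and 17, and 1 and 10, against 21.1% and 25.1% of all genes. The ZSCAN and ZKSCAN genes had a median of 0.20 as deposited and -0.55 after quantile normalization. The medians of these families, like that of the ZNF genes, were below that of all genes as deposited. The same held under both scalings, which move all genes of a library together and could hardly change it.

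The calls that depended least on the processing were 18 higher and 15 lower, which were called in each of 19 settings, where 18.6% and 4.93% of all genes were. The genes higher throughout include ZNF18, ZNF646, ZNF438, ZNF432, ZNF789, ZNF628, ZNF574, ZNF541, ZNF346, ZNF821, ZNF318, ZNF215 and ZNF76. Those lower throughout include ZNF704, ZNF84, the shorter entry of ZNF268, ZNF358, ZNF770, ZNF711, ZNF174, ZNF423 and ZNF445.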

How the data were processed

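The libraries were strand-specific and depleted of ribosomal RNA. According to the study's methods, reads were mapped with TopHat2 and transcripts assembled with StringTie. The authors deposited FPKM values of genes and of transcripts for each library, with no read counts, so the depth behind a single value is unknown and no counting interval was computed. Which tool made the FPKM values, and whether it used the strand, is not given in the sources used here. The study names UMD3.1.1, but 1050 entries lie on scaffolds named as in ARS-UCD, and 241 of 250 ZNF genes overlapped the locus of the same symbol in the RefSeq annotation of ARS-UCD2.0 (244 matched by symbol), so positions are given as ARS-UCD. No sequences were used here.

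Values were analysed as log2(FPKM + 1) in R 4.3.3 with limma 3.58.1 (empirical Bayes with trend), keeping features that reached an FPKM of 1 in 3 or more of 6 libraries, with Benjamini-Hochberg adjustment over all features tested. Fold changes on this scale understate the change of low genes. Calls were made at an adjusted p under 0.05 where the log2 fold change reached 1 in either direction. Replicates are separate animals. The procedure was tested on data simulated with a spread computed without calf 3. Changes were added there only to features above a set mean level. The effect of a library like calf 3, and the recovery of changes in low features, were thus not tested. Alternatives were another pseudocount, filters, quantile and median-of-ratios scaling, array weights, no trend, a replicate block and leaving out each library. Both scalings without calf 3, and sums of Ensembl transcripts only, were added after seeing the data. Figures were drawn with matplotlib 3.10.9.

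The members and the lists of roles and markers were chosen with earlier results of these data known. Named genes were the 8 highest and 8 lowest log2 fold changes called with and without calf 3 in groups that did not overlap, the 5 highest means, the 5 largest excesses in calf 3, at most 4 per role by size of change, the 3 nearest to the limit on either side, the 5 moved most by calf 3, at most 4 of the X chromosome and the 4 smallest adjusted p. Genes named in the text on transcripts, clusters and chromosome 28, and ZNF143, ZNF593, ZNF473, ZNF81 and the further cofactors, were chosen after their values were seen.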

Additional observations from a re-analysis of the deposited data

How the results depend on the processing

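The FPKM values carry no depth, and 3 animals per group limit each estimate. Quantile normalization gave 91 ZNF genes lower, a median log2 fold change of -0.78 and 165 ZNF transcripts called, and, without calf 3, 25 higher, 88 lower and a median of -0.72. Median-of-ratios scaling gave a median of -0.32 and 3 KRAB cofactors called, and, without calf 3, 54 lower, a median of -0.40 and 3 cofactors. These medians follow the shift of all genes given above. Leaving out 1 library at a time gave 37 to 43 ZNF genes higher, 21 to 33 lower (21 without bull 1), medians from -0.13 to -0.07, 5 cofactors and 93 to 110 transcripts called against 108 with all libraries. The same replicate numbers in both groups did not pair the libraries, with correlations of same-numbered deviations of 0.0277, 0.0246 and 0.0341, although every library correlated best with its own number. A fit with the replicate block gave 40 higher, 30 lower, a median of -0.10, 5 cofactors and 108 transcripts.

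Of the 50 named genes with a test, 37 were called, and 25 of these were called in the same direction in every alternative in which they were tested. None of these 37 genes changed its direction. Among called genes outside this set, the scaffold entry of ZNF449 and ZNF629 were below 0 over Ensembl transcripts. Their values were -0.44 and -0.25, neither called. Some genes not called changed sign in an alternative, and values that kept their sign are given where they end the range over libraries left out. ZNF536 was 0.065 with a pseudocount of 0.1, 0.92 with array weights, -0.81 without calf 1 and 1.0 without calf 3, and, also without calf 3, 0.22 after quantile normalization, 0.78 after median-of-ratios scaling and 0.59 over Ensembl transcripts. ZNF483 was -0.58 after quantile normalization, -0.11 after median-of-ratios scaling, -0.49 over Ensembl transcripts, -0.25 without calf 1, -0.22 without calf 2, -0.12 without bull 2, -0.11 without bull 3 and 0.79 without calf 3. ZNF597 was -0.48 after quantile normalization and -0.47 without calf 3 as well, and ZNF771 was 0.018 without calf 2 and -0.95 without calf 3. Without calf 3, ZNF217 was -0.31 after quantile normalization and -0.10 after median-of-ratios scaling, ZNF622 was -0.14 and ZNF165 -0.10 after quantile normalization. The causes were not tested.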
